A study of Mus musculus with 8 samples.

Results

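The 10 genes described here encode the receptors by which platelets stick to vessel walls, to fibrinogen and to other cells, together with 2 proteins that platelets carry to their surface from granules. They were taken by RefSeq symbol, as Itga2b, Itgb3, Gp1ba, Gp1bb, Gp5, Gp9, Gp6, Clec1b, Treml1 and Selp, out of 20887 genes that the arrays measured. Each gene was read from its brightest probe. A probe is called above background where the scanner software scored its spot as well above the local background. On all 8 arrays 8 of the 10 genes passed this mark; Clec1b passed on 5, and Gp6 on 1, so that Gp6 was not tested.

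Bone marrow of C57BL/6 mice was transplanted into lethally irradiated wild-type recipients, and sorted cells of 2 kinds were collected 2 months later. MEP are megakaryocyte and erythroid progenitors, and LSK are lineage-negative, Sca-1 and c-Kit positive stem and progenitor cells. For each kind there were 4 genotypes of donor marrow. The double mutant carried JAK2V617F, the constitutively active kinase of myeloproliferative neoplasms, and had lost Ezh2, the histone H3 lysine 27 methyltransferase (JAK2V617F/Ezh2Δ/Δ). The others were JAK2V617F alone, Ezh2 deletion alone (Ezh2Δ/Δ), and wild type (WT). All donor marrow carried Cre-ERT2, an inducible recombinase, WT included, and Ezh2 was deleted in week 4 after transplantation. The labels do not say how many recipients were pooled, nor what drives JAK2V617F. Each of the 8 combinations of cell and genotype was measured on 1 array from 20 ng of RNA, so no group has a replicate. Tests here rest on matched pairs of arrays, and their errors measure how far pairs disagreed, not the spread between mice.

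The share of probes above background ranged over the arrays from 39.8% to 48.8%, and no spot was saturated. All 9 erythroid marker genes tested were called higher in MEP than in LSK, where 20.6% of all genes were called higher, and 6 of 8 LSK marker genes were called lower, where 20.4% of all genes were. The Ezh2 probe stayed above background in every group, and within each pair it was lower with the deletion. Its level was 3.43 in double-mutant MEP against 4.04 in JAK2V617F MEP, and 3.86 in Ezh2Δ/Δ MEP against 3.96 in WT MEP. Whether that probe lies in the deleted exons is not known here. Xist was at 1.39 to 2.85 on the 4 Ezh2-deleted arrays and at -3.24 or lower on the 4 with intact Ezh2, and the Y-linked Eif2s3y and Ddx3y ran the opposite way. Ezh2 status therefore cannot be told apart from the sex of the marrow. The 10 receptor genes all lie on autosomes. All 8 arrays lay on 1 slide, with cell type by row and genotype by column, so position on the slide cannot be told apart from the groups.

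Platelet adhesion works in steps. The GPIb-IX-V complex, made of the products of Gp1ba, Gp1bb, Gp9 and Gp5, tethers platelets to von Willebrand factor under flow. Collagen then engages glycoprotein VI, and the resulting signals open integrin αIIbβ3, the product of Itga2b and Itgb3, for fibrinogen. These genes are switched on as progenitors commit to the megakaryocyte lineage, where GATA and ETS family transcription factors are known to act on them. In haematopoiesis αIIb (CD41) is also carried by early progenitors and some stem cells, and P-selectin, the product of Selp, is also made by endothelium.

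The promoters of 5 of the genes are shown because they hold the sequence around the start sites of 4 genes that were at least 2-fold lower in both JAK2V617F MEP pairs, with Gp1ba as a gene that was not. Each window runs from 250 bases before to 50 bases after the RefSeq gene start (assembly GRCm38.p6), 5′ to 3′ on the gene's own strand. Capitals mark 3 motifs on either strand: the core GATAA bound by GATA1 and its relatives, the ETS core GGAAGT, and the STAT core TTCNNNGAA. No marked stretch overlaps another.
Itga2b promoter (chr11:102469834-102470133, - strand): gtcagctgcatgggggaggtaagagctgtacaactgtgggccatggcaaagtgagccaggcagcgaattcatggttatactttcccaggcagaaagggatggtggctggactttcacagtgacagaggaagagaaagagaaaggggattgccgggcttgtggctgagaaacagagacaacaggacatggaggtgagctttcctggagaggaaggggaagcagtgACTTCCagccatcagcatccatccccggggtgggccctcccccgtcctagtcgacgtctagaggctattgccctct
Clec1b promoter (chr6:129397047-129397346, + strand): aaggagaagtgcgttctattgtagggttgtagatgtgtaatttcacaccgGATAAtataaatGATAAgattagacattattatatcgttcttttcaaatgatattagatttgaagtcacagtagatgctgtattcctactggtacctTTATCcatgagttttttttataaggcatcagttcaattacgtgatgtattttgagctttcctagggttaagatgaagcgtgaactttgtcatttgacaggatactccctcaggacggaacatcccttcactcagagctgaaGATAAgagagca
Treml1 promoter (chr17:48359666-48359965, + strand): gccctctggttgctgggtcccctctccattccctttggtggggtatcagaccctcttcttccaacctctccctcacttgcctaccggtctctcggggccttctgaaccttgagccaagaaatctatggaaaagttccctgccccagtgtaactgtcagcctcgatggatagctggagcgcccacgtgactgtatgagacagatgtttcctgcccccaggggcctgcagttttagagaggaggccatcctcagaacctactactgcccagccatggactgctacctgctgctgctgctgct
Selp promoter (chr1:164115014-164115313, + strand): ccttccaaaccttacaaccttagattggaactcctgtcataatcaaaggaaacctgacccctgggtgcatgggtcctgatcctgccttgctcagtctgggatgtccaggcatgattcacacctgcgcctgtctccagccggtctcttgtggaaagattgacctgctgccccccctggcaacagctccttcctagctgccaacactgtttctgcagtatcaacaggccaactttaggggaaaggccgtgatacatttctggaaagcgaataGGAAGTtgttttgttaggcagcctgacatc
Gp1ba promoter (chr11:70638872-70639171, + strand): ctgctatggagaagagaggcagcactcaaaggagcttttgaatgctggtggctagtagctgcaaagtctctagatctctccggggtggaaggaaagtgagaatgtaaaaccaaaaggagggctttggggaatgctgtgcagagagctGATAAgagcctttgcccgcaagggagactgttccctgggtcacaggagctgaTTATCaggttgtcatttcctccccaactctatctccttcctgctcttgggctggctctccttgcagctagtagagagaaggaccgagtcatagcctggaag

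RefSeq windows were at hand for 9 of the 10 genes, all but Itgb3. GATAA was found in 5 of the 9 windows (Clec1b, Gp1ba, Gp5, Gp6 and Gp9), and in 25.4% of 32851 promoters of the same length. The Clec1b window held it 4 times and the Gp1ba window 2 times. GGAAGT was found in 5 of the 9 windows (Itga2b, Selp, Gp5, Gp6 and Gp9), against 23.8% of all promoters. TTCNNNGAA was found in the windows of Gp1bb and Gp5, against 8.30% of all promoters, and the Treml1 window held none of the 3 motifs. A match describes letters in the window and shows no binding. Whether the motifs go with the folds in MEP was not tested. Treml1, with no match, and Clec1b, with 4 GATAA matches, were both more than 2-fold lower with JAK2V617F. Gp1ba, Gp5 and Gp9, also with GATAA, had the smallest differences in MEP, at -0.43, -0.29 and -0.51.

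In MEP, JAK2V617F arrays carried less RNA of most of these receptors than their partners with normal JAK2. Both JAK2V617F MEP arrays lay below both other MEP arrays for 7 of the 9 genes tested, as 15.4% of all 13182 tested genes did. The differences were wide for Clec1b and for the β3 and αIIb integrin subunits, P-selectin and Treml1, and narrow for the GPIb-IX-V complex. In LSK the same comparison gave differences near 0 or above it. None of the 9 genes passed an adjusted p of 0.05 for the JAK2V617F effect in MEP, where 0.159% of all genes were called, nor in LSK, where 0.174% were. Levels are log2 signals minus the array's 75th percentile, and differences are log2 unless given as -fold. These are bulk populations, in which fewer cells that express a gene and less RNA per cell cannot be told apart.

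**Figure D1:**
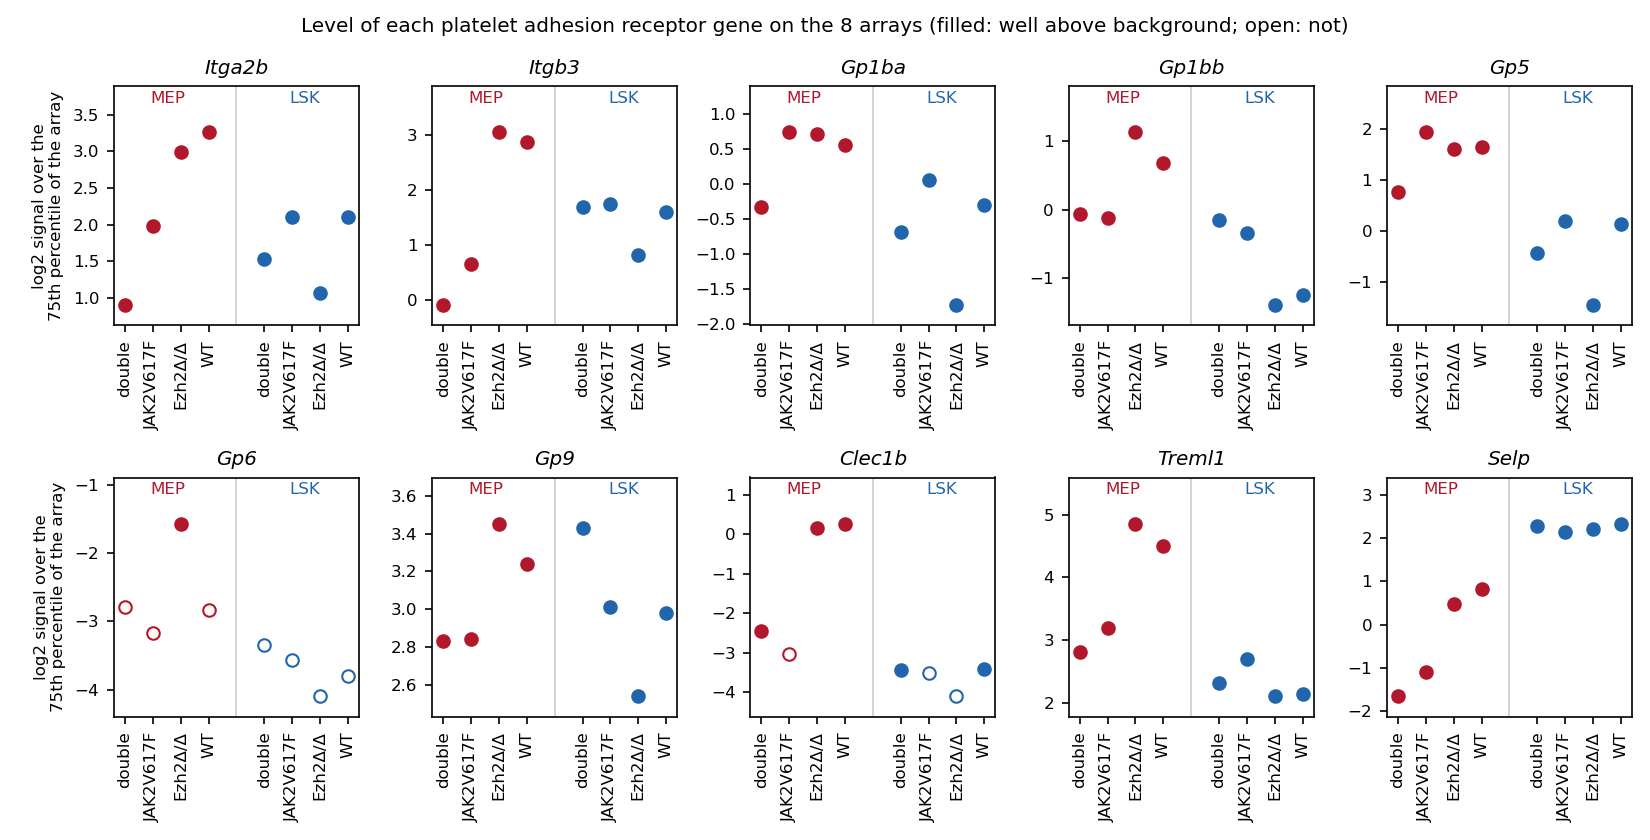
Levels of the 10 receptor genes on each of the 8 arrays, as log2 signal minus that array's 75th percentile, with MEP left of LSK and 1 point per array. Itgb3, Selp, Clec1b and Treml1 are lower on the 2 JAK2V617F MEP arrays than on the other 2 MEP arrays, and for these 4 genes the LSK arrays lie closer together; open points were not well above background.

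Itgb3, whose product β3 pairs with αIIb on platelets and with αv on other cells, was at -0.09 in double-mutant MEP and 0.64 in JAK2V617F MEP, against 3.04 in Ezh2Δ/Δ MEP and 2.87 in WT MEP. The 2 sets of MEP arrays did not overlap and stood 2.23 apart. The fold was 6.41 lower with JAK2V617F (-2.68 ± 0.32, SE of the fit over 2 pairs, 95% interval -3.47 to -1.89, unadjusted p = 0.00023, adjusted p = 0.0732). In LSK it was at 1.69 in the double mutant and 1.74 with JAK2V617F, against 0.82 with Ezh2Δ/Δ and 1.60 in WT, a difference of 0.50 ± 0.32 (adjusted p = 0.435). A second, dim Itgb3 probe, above background on 6 arrays, gave -1.24 in MEP and 1.02 in LSK.

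Itga2b, the αIIb subunit and the CD41 antigen, was at 0.91 in double-mutant MEP and 1.98 in JAK2V617F MEP, against 3.00 in Ezh2Δ/Δ MEP and 3.26 in WT MEP. Its 2 sets of MEP arrays stood 1.02 apart, and the double mutant was lowest. The mean fold was 3.21 lower (-1.68 ± 0.28, adjusted p = 0.127). The LSK levels were 1.53 in the double mutant and 2.11 with JAK2V617F, against 1.07 with Ezh2Δ/Δ and 2.11 in WT, so that JAK2V617F and WT LSK were level and only the pair with Ezh2 deleted differed, by 0.46. Over the 8 arrays the levels of Itga2b and Itgb3 had a Pearson correlation of 0.893, a description across arrays that share genotypes and slide.

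The 4 genes of the von Willebrand factor receptor moved less, and not as one. Gp1bb, the β chain of GPIb, was at -0.06 in double-mutant MEP and -0.12 in JAK2V617F MEP, against 1.13 in Ezh2Δ/Δ MEP and 0.68 in WT MEP, 1.99-fold lower with JAK2V617F (-0.99 ± 0.23, adjusted p = 0.235). In LSK it ran the other way, at -0.15 in the double mutant and -0.34 with JAK2V617F against -1.39 with Ezh2Δ/Δ and -1.24 in WT. Both LSK arrays with JAK2V617F thus lay above both without it, by a mean of 1.07 ± 0.23 (unadjusted p = 0.0040, adjusted p = 0.155), the widest LSK difference among the 9 genes. The other 2 Gp1bb probes were above background on 3 arrays and on none. Gp1bb overlaps Septin5 in the RefSeq table, and which of the transcripts its probe reads is not known here.

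Gp9, the small subunit that GPIb needs to reach the surface, was at 2.83 in double-mutant MEP and 2.84 in JAK2V617F MEP, against 3.45 in Ezh2Δ/Δ MEP and 3.24 in WT MEP (-0.51 ± 0.27, adjusted p = 0.766). Its LSK levels were 3.43 in the double mutant, 3.01 with JAK2V617F, 2.54 with Ezh2Δ/Δ and 2.98 in WT, so only the Ezh2-deleted pair differed by more than 0.03. The remaining pair of genes showed no separation in MEP. Gp1ba, which encodes the ligand-binding α chain, was at -0.33 in the double mutant and 0.74 with JAK2V617F, against 0.72 with Ezh2Δ/Δ and 0.56 in WT. The JAK2V617F effect on Gp1ba in MEP was -0.43 with a 95% interval of -1.32 to 0.46, which leaves more than a 2-fold decrease possible.

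Gp5, which encodes the thrombin-cleaved glycoprotein V, had 0.75 in double-mutant MEP and 1.93 in JAK2V617F MEP, against 1.60 in Ezh2Δ/Δ MEP and 1.65 in WT MEP. As with Gp1ba, only the double mutant was below its partner, by 0.85 for Gp5 and 1.05 for Gp1ba, while JAK2V617F alone was 0.28 and 0.18 above WT. In LSK the order was alike for both: Ezh2Δ/Δ was lowest, at -1.45 for Gp5 and -1.72 for Gp1ba. The other LSK levels of Gp5 were -0.44 in the double mutant, 0.20 with JAK2V617F and 0.14 in WT, and those of Gp1ba were -0.69, 0.06 and -0.30 for the same groups. The JAK2V617F effects in LSK were 0.54 ± 0.37 for Gp5 and 0.70 ± 0.36 for Gp1ba (adjusted p = 0.474 and 0.358). Across the 8 arrays Gp1ba and Gp5 correlated at 0.958, again as a description.

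Clec1b encodes CLEC-2, the receptor for podoplanin. It was at -2.44 in double-mutant MEP and below background at -3.05 in JAK2V617F MEP, against 0.14 in Ezh2Δ/Δ MEP and 0.26 in WT MEP. The gap of 2.59 between the 2 sets of arrays was the widest among the 9 genes. JAK2V617F MEP were at least 9.93-fold lower than WT MEP, a bound because the JAK2V617F spot was not well above background, and double-mutant MEP were 6.01-fold lower than Ezh2Δ/Δ MEP. The fitted effect was -2.95 ± 0.30 (unadjusted p = 0.000103, adjusted p = 0.0591). All 3 Clec1b probes were lower with JAK2V617F in MEP, by -1.79, -2.95 and -2.75. In LSK this probe was near or under background, at -3.44 in the double mutant and -3.52 with JAK2V617F, against -4.11 with Ezh2Δ/Δ and -3.42 in WT, where only the double mutant and WT were above background. Another Clec1b probe was above background on all 4 LSK arrays and gave -1.79 in MEP and -0.30 in LSK.

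Gp6, the collagen receptor glycoprotein VI, was above background only in Ezh2Δ/Δ MEP, at -1.57. The other MEP arrays read -2.79 in the double mutant, -3.17 with JAK2V617F and -2.83 in WT, none of them well above background. Double-mutant MEP were therefore at least 2.32-fold lower than Ezh2Δ/Δ MEP, and no fold can be given for JAK2V617F against WT. The 4 LSK arrays were below background.

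Treml1, which encodes TLT-1, a receptor kept in α-granules that binds fibrinogen, was at 2.80 in double-mutant MEP and 3.19 in JAK2V617F MEP, against 4.85 in Ezh2Δ/Δ MEP and 4.49 in WT MEP. The 2 sets of arrays stood 1.30 apart, and the mean fold was 3.19 lower (-1.67 ± 0.27, adjusted p = 0.109). The LSK levels were 2.32 in the double mutant and 2.71 with JAK2V617F, against 2.11 with Ezh2Δ/Δ and 2.14 in WT (0.39 ± 0.27, adjusted p = 0.469).

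Selp, whose product P-selectin moves from granules to the surface and binds PSGL-1 on leukocytes, was at -1.65 in double-mutant MEP and -1.09 in JAK2V617F MEP, against 0.47 in Ezh2Δ/Δ MEP and 0.81 in WT MEP. The 2 sets of MEP arrays stood 1.56 apart, a mean of 4.02-fold lower with JAK2V617F (-2.01 ± 0.21, unadjusted p = 0.000119, adjusted p = 0.0628). The 4 LSK arrays hardly differed, at 2.27 in the double mutant, 2.13 with JAK2V617F, 2.21 with Ezh2Δ/Δ and 2.32 in WT (-0.07 ± 0.21). Of the 7 endothelial markers, Cdh5, Sele and Lyve1 were below background on all 8 arrays, Kdr and Plvap were above it on all 8, Tek was on 6 and Emcn on 3 LSK arrays. The JAK2V617F effects of the 4 measured markers in MEP had a median of -0.15 with none called, and in LSK Emcn was called lower (-3.00, adjusted p = 0.0256).

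Over the 9 genes the median JAK2V617F effect in MEP was -1.67, against -0.08 over all 13182 genes. Lower in both MEP pairs were 7 of the 9, against 29.3% of all genes, and 5 (Itga2b, Itgb3, Clec1b, Treml1 and Selp) were at least 2-fold lower in both pairs, against 0.948% of all genes. An unadjusted p under 0.05 was reached by 6 of the 9 in MEP, where 7.97% of all genes reached it. Without the double-mutant or the Ezh2Δ/Δ MEP array the median was -1.28, and Gp1ba and Gp5 turned positive, at 0.18 and 0.28. Itga2b, Itgb3, Clec1b, Treml1 and Selp were called with a normexp background correction (adjusted p = 0.0457, 0.0192, 0.0165, 0.0306 and 0.0219). It called 51 of the 13182 genes in MEP, where the main fit called 21. A trend in the variance prior also called the 5 genes, and called 109 genes in MEP. Testing only genes above background on all 8 arrays called 100, among them the 5 but for Clec1b, which fell outside that filter. Quantile normalization called Clec1b alone among the 9. None of the 9 was called with the authors' deposited table, the percentile over detected probes or a common floor. The same held for the mean of the probes and for no filter on dim probes. The 5 genes were also called with a fit of the 4 MEP arrays alone, added after seeing the data. That fit gives all genes one common spread and called 335 of the 13182 genes. With any 1 of the MEP arrays left out, the effect in MEP is the difference of a single pair. Its spread then comes from the LSK arrays alone, which leave 1 residual degree of freedom. None of the 5 was called in MEP in these fits, nor was any other gene. They cannot decide whether the calls depend on 1 MEP array.

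**Figure D2:**
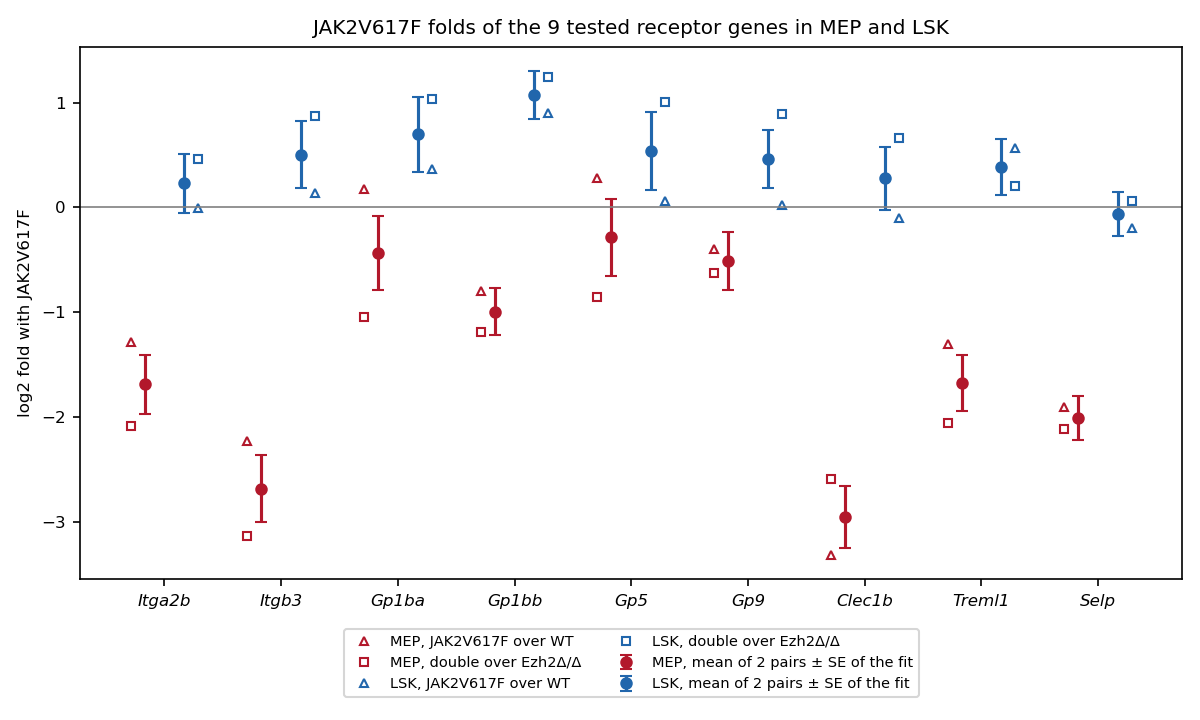
JAK2V617F folds of the 9 tested genes on the log2 scale, MEP in red left of LSK in blue, with triangles for JAK2V617F over WT, squares for the double mutant over Ezh2Δ/Δ and filled points for the mean of the 2 pairs ± SE of the fit. All 9 means lie below 0 in MEP, and in LSK 8 of 9 lie above 0, with Gp1bb highest at 1.07.

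In LSK the median effect of the 9 genes was 0.46, against 0.07 over all genes, and 6 of the 9 were higher in both LSK pairs, as 43.2% of all genes were. In single pairs, 3 genes were at least 2-fold higher in the double mutant than in Ezh2Δ/Δ, as 3.49% of all genes were, and none was so in JAK2V617F against WT, where 3.93% of all genes were. The median depended on 1 pair: it was 0.06 without the Ezh2Δ/Δ or the double-mutant LSK array and 0.87 without the WT or the JAK2V617F LSK array. An unadjusted p under 0.05 was reached only by Gp1bb among the 9, while 17.9% of all genes reached it.

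Set against each other, the JAK2V617F folds in MEP minus those in LSK were negative for all 9 genes, with a median of -1.94 against -0.12 over all genes. The difference was -3.23 ± 0.42 for Clec1b, -3.18 ± 0.45 for Itgb3, -2.06 ± 0.38 for Treml1, -2.06 ± 0.32 for Gp1bb, -1.94 ± 0.30 for Selp and -1.92 ± 0.39 for Itga2b. The value of Clec1b rests partly on spots below background, and the Clec1b probe above background on all LSK arrays gave -1.49. The difference was narrower for Gp1ba, Gp9 and Gp5, at -1.13 ± 0.50, -0.97 ± 0.39 and -0.82 ± 0.53. In 4 genes (Itgb3, Gp1bb, Gp9 and Treml1) both MEP pairs were lower and both LSK pairs higher with JAK2V617F, as in 13% of all genes. Both MEP folds lay below both LSK folds for 8 of the 9 genes, as they did for 30.5% of all genes. No gene on the arrays was called in this test (0% of 13182), and the adjusted p of the 9 genes was 0.186 or higher. At an unadjusted p under 0.05 the difference was found for 7 of the 9 and for 11.5% of all genes. Scaling each array by the probes detected on all arrays, in place of all spots, moved the median of all genes in this contrast to 0.10, and all 9 genes stayed negative under it with a median of -1.72.

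Neutrophil markers had higher levels on the JAK2V617F arrays of both cell types. The mean level of the 6 markers was 2.21 in double-mutant MEP and 1.90 in JAK2V617F MEP, against 0.33 in Ezh2Δ/Δ MEP and -0.50 in WT MEP. In LSK it was 1.15 in the double mutant and 1.44 with JAK2V617F, against -0.57 with Ezh2Δ/Δ and -2.31 in WT. Over all pairs, where 0.311% of all genes were called, 4 of these 6 markers were called higher. The median JAK2V617F effect of the neutrophil markers was 2.60 in MEP and 2.80 in LSK, positive in both kinds of cell. The part of these cells in the receptor folds was not tested. Erythroid markers had a mean level of 3.52 in double-mutant MEP and 3.58 in JAK2V617F MEP, against 3.79 in Ezh2Δ/Δ MEP and 4.25 in WT MEP, with a median effect of -0.44 and none called. The 3 B cell markers tested were negative in MEP with a median of -2.24, and their list's mean level was -3.02 in double-mutant MEP and -3.66 in JAK2V617F MEP, against -0.90 in Ezh2Δ/Δ MEP and -3.69 in WT MEP. LSK markers had medians of 0.49 in MEP and -0.68 in LSK, and mast cell markers had medians of -0.14 in MEP and 1.56 in LSK, with none called in either. Over all pairs 1 of the 5 mast cell markers tested was called higher. Macrophage markers had medians of 0.08 in MEP and 0.51 in LSK, where Adgre1 was called higher, and T cell markers -0.09 and 0.45. The MEP medians of the LSK, mast cell and macrophage lists include genes at background. Flt3, Procr, Mecom, Prss34, Mcpt4, C1qb and Adgre1 were below it on every MEP array. Ly6a, Mcpt8 and Vcam1 were above it on 1 MEP array each. The part of these cells was not tested either.

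Megakaryocyte markers outside the receptor list also had mostly negative JAK2V617F effects in MEP. Of 8 such genes 7 were tested, 6 were lower in MEP with JAK2V617F, and the median effect was -1.77 with none called. Their mean level was 0.87 in double-mutant MEP and 1.17 in JAK2V617F MEP, against 2.45 in Ezh2Δ/Δ MEP and 2.23 in WT MEP, and it stayed between 1.20 and 1.32 on the 4 LSK arrays. Vwf, the ligand of GPIb, was at -2.17, Plek, the platelet protein pleckstrin, at -1.81, and Pf4, platelet factor 4, at -1.77. Ppbp, a platelet chemokine, was 4.71-fold lower in JAK2V617F MEP than in WT MEP and at least 10.4-fold lower in double-mutant MEP, where it was below background, than in Ezh2Δ/Δ MEP. In LSK 4 of the 7 were positive and the median was 0.31.

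The rest of the adhesion machinery was more mixed. Of 11 ligands and counter-receptors 4 were tested, and only Vwf was lower in both MEP pairs, at -2.17 on average. The MEP pairs had opposite signs for Thbs1 (thrombospondin), with -2.29 for the double mutant against Ezh2Δ/Δ and 0.72 for JAK2V617F against WT, and for Selplg, the P-selectin ligand PSGL-1, with -0.54 and 0.77. Fn1 (fibronectin) was above background in double-mutant MEP alone, at least 2.64-fold higher than in Ezh2Δ/Δ MEP. Of the other integrin subunits of blood cells 9 of 10 were tested, with a median of -0.03, 4 positive and 5 negative. Itgav, the αv partner of β3, was below background on all 4 MEP arrays and has no fold there. The leukocyte subunits Itgal, Itgb7 and Itgam were at 0.72, 0.41 and 0.21, and the pairs of Itgb7 and Itgam differed in sign.

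Signalling proteins behind the receptors had a median of -0.27 over 16 tested genes, 12 of them negative, against a median of -0.08 over all genes. Rap1b, which switches αIIbβ3 on, was at -0.79, Syk, the kinase downstream of GPVI and CLEC-2, at -0.61, and Plcg2 at -0.61. In JAK2V617F over WT MEP alone these 3 were at -0.91, -0.06 and -0.19. In that pair more of the 16 were higher than lower, so the count rests largely on the double mutant over Ezh2Δ/Δ. Vav3 was below background in JAK2V617F MEP, at least 1.92-fold lower than in WT MEP. Receptors for soluble agonists gave a median of -0.10 over 8 tested genes, 4 of them negative. Tbxa2r, the thromboxane receptor, was at -1.84 and P2rx1, an ATP-gated channel, at -1.21, both lower in both pairs. Adra2a, the α2A adrenergic receptor, was below background in JAK2V617F MEP, at least 3.98-fold lower than in WT MEP, and differed by -0.35 between the double mutant and Ezh2Δ/Δ. F2rl3, a thrombin receptor, was at 0.24 with pairs of opposite sign. Other platelet surface proteins had a median of -0.40 over 11 genes, with the junction protein Esam at -1.56. None of the genes in these lists was called in MEP.

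On the mean of the 2 MEP pairs, transcription factors of the lineage were lower in 12 of 15 cases. Their median was -0.24, against -0.08 over all genes. In JAK2V617F over WT MEP alone most of the list was higher, so the count rests largely on the double mutant over Ezh2Δ/Δ. Fli1, an ETS factor, was at -0.74, Gfi1b at -0.41 and Lyl1 at -0.37. In JAK2V617F over WT MEP alone these were -0.49, -0.01 and -0.23. Mafg, a partner of NF-E2, averaged -2.52 through 1 array: it was at 9.70 in WT MEP and between 4.46 and 4.65 on the other 3 MEP arrays, and without the WT pair its difference was 0.19. The GATA factor Gata1 itself was at -0.36 in MEP and the NF-E2 subunit Nfe2 at 0.21, with none called. In LSK the medians of the ligand, integrin, signalling, agonist receptor, other surface and transcription factor lists were 0.32, 0.23, -0.01, -0.0023, -0.16 and -0.06.

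**Figure D3:**
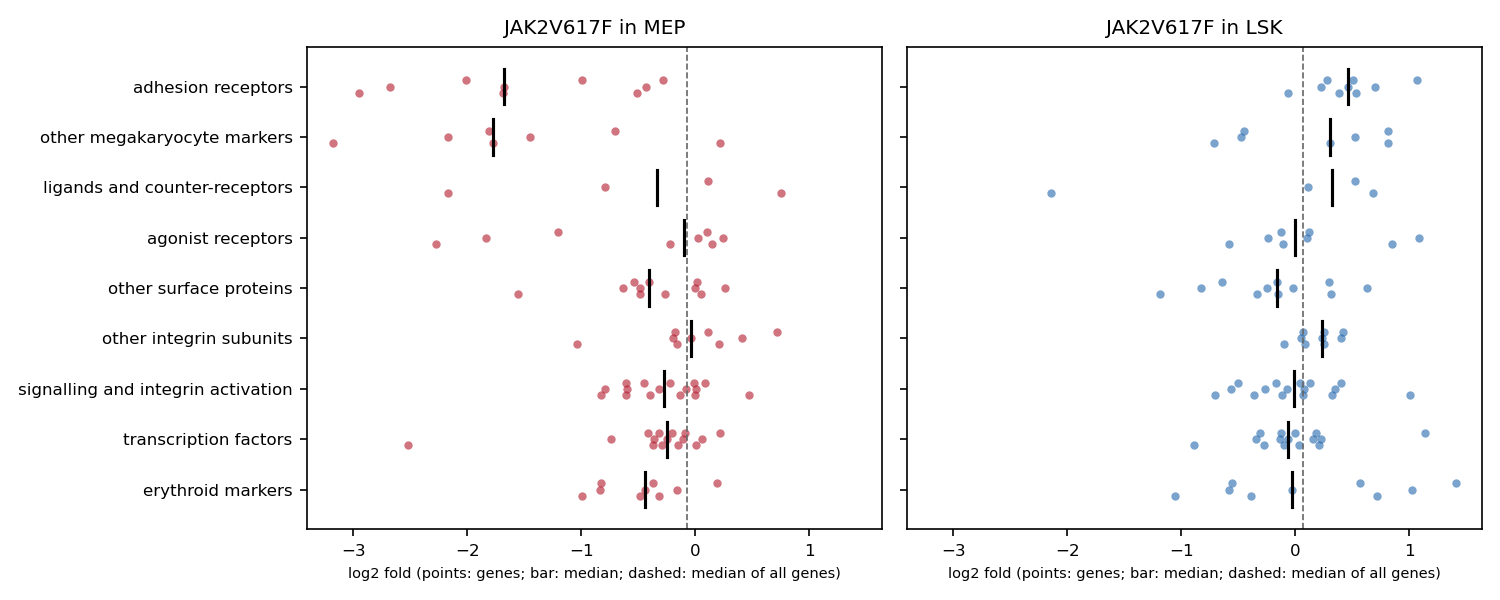
JAK2V617F effects of the receptor genes and the other gene lists in MEP (left) and LSK (right) on the log2 scale, each point a tested gene and each bar the median of its list. The receptor and megakaryocyte marker lists have medians of -1.67 and -1.77 in MEP, whereas the other adhesion lists lie nearer 0.

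The genes whose level followed the mean profile of the 9 receptors most closely over the 8 arrays were Vwf, Pde10a, Cavin2, Rab27b, Timp3 and Pf4, at Pearson correlations of 0.961, 0.936, 0.924, 0.915, 0.855 and 0.855 among 1379 candidates outside the list. Each was lower with JAK2V617F in MEP, by 2.17, 1.77, 2.40, 1.45, 1.65 and 1.77 on the log2 scale in that order. The receptor profile is itself lower on the JAK2V617F MEP arrays, so picking genes by it leads to such values, which are no further result. None was called, with Cavin2 nearest at an adjusted p of 0.0656. The arrays share genotypes, and these correlations carry no test.

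Averaged over genotypes, MEP carried more RNA than LSK of several of these receptors and less of P-selectin. Of the 9 genes 6 were called, 5 higher and 1 lower, in a comparison in which 41% of all genes were called, 20.6% higher and 20.4% lower. Gp5 was 1.87 ± 0.29 higher (adjusted p = 0.0020) and Selp was 6.07-fold lower (-2.60 ± 0.39, adjusted p = 0.0017), and both calls held under all 19 alternatives. Clec1b was higher by 2.35 ± 0.63 (adjusted p = 0.0206), Treml1 by 1.52 ± 0.41 (0.0226), Gp1bb by 1.19 ± 0.41 (0.0496) and Gp1ba by 1.08 ± 0.32 (0.0321), and these 4 calls were less firm. Without the WT LSK array their adjusted p was 0.0659 for Clec1b, 0.0725 for Treml1, 0.145 for Gp1bb and 0.0750 for Gp1ba, and all 4 calls were also lost without the Ezh2Δ/Δ LSK array or the WT MEP array. Leaving out the Ezh2Δ/Δ MEP array ended the calls of Clec1b, Treml1 and Gp1bb, and leaving out the JAK2V617F MEP array that of Gp1ba. With the Clec1b probe of the highest mean log2 level, an alternative added after seeing the data, the Clec1b difference was 0.73 (adjusted p = 0.0993). A common floor for dim spots ended all 4 calls (adjusted p = 0.0988 for Clec1b, 0.0576 for Treml1, 0.100 for Gp1bb and 0.0672 for Gp1ba). The Gp1bb call was also lost with quantile normalization, the percentile over detected probes, the authors' deposited table and the mean of its probes. Itga2b, Itgb3 and Gp9 were not called, at 0.58, 0.16 and 0.10. For each of them this average joins differences of opposite sign. MEP lay above LSK in WT and Ezh2Δ/Δ, and below LSK with JAK2V617F and in the double mutant. Itgb3 was at 2.87 in WT MEP and 1.60 in WT LSK, against 0.64 and 1.74 with JAK2V617F. For Selp every MEP array lay below every LSK array, as for 17.2% of all genes, and for 4 genes every MEP array lay above every LSK array, as for 18.8%.

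**Figure D4:**
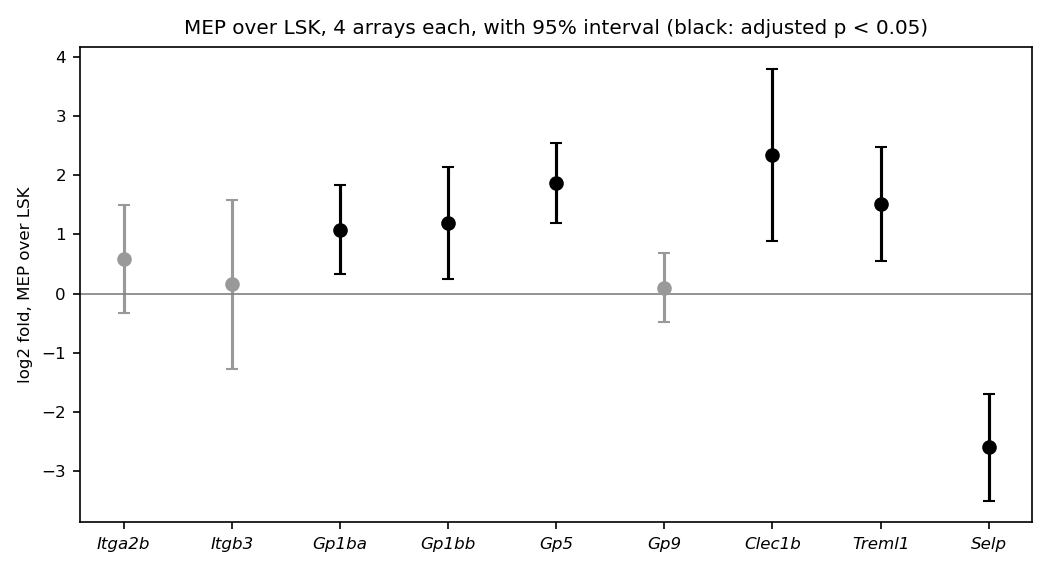
Difference between MEP and LSK (log2, MEP over LSK) for the 9 tested receptor genes, averaged over the 4 genotypes, with 95% intervals of the fit. Black points mark the 6 genes with an adjusted p under 0.05, of which Selp alone is below 0.

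Deletion of Ezh2 gave no call among the 9 genes, where 0.706% of all genes were called. The widest values were -0.86 for Gp5 and -0.77 for Gp1ba (unadjusted p = 0.019 and 0.047, adjusted p = 0.231 and 0.274), then -0.73 for Itga2b (adjusted p = 0.340), and the median of -0.22 compares with -0.10 over all genes. Ezh2Δ/Δ was the lowest of the 4 LSK arrays for 8 of the 9 genes, as for 34.6% of all genes, and the double mutant was the lowest of the 4 MEP arrays for 7 of the 9, as for 46.1%. Whether the JAK2V617F effect depended on Ezh2 was tested with an interaction term averaged over MEP and LSK, which was called for no gene (0%, limma). An unadjusted p under 0.05 was reached by 3.47% of all genes, none of the 9 among them. The term ranged from -0.55 ± 0.85 for Treml1 to 0.75 ± 1.29 for Clec1b. Differences between MEP and LSK in the JAK2V617F folds counted as spread in this fit. Dependence on Ezh2 within MEP alone was not tested. Averaged over all 4 pairs, LSK and MEP together, no receptor gene was called for JAK2V617F, and Selp at -1.04 (unadjusted p = 0.030, adjusted p = 0.399) was the only one with an unadjusted p under 0.05, which 11% of all genes reached.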

How the data were processed

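Gene expression was measured on 8 one-colour Agilent arrays (Cy3), 1 for each combination of sorted cell (MEP, LSK) and genotype. Per the file headers, Agilent Feature Extraction made the deposited intensity values, subtracting background and detrending within an array, and nothing was scaled between arrays. A table of the whole series, also deposited, gives linear ratios; its values equal the processed signal over 1 factor per array, and it served as an alternative. What else was done upstream is not given in the sources used here.

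Each array had 62976 spots, 3671 of them controls. Of 55681 probes 27509 (49.4%) matched a gene of the RefSeq table (GRCm38.p6) by accession, which gave 20887 genes. Non-uniform spots were left out, spots of a probe averaged, log2 taken and the array's 75th percentile subtracted. A gene was read from the probe with the highest mean signal and tested when 2 or more of the 8 arrays had it above background, leaving 13182 genes. limma 3.58.1 (R 4.3.3) fitted cell type, JAK2 and Ezh2 additively, or JAK2 and Ezh2 within cell type with the spread pooled over both, and p-values were Benjamini-Hochberg adjusted over all 13182 genes and called under 0.05. A fold against a spot not above background is a bound against the lowest signal above background on that array or the spot itself, whichever is higher. The number of arrays limits the precision. Promoter sequences are RefSeq's.

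List medians are over fitted values, dim genes included. All 10 members are named; of other lists up to 4 genes are named, called ones first and then the largest folds, with the 6 genes most alike in profile among genes above background on all arrays that span at least 2 on the log2 scale; Gata1 and Nfe2 were named after their values were seen. Members and lists were chosen with earlier results of these data known. A gene of the agonist receptor list is not reported here, and the values of that list are without it.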

Additional observations from a re-analysis of the deposited data

Results flagged for a closer look

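For 4 of the 9 tested receptor genes both MEP pairs were lower with JAK2V617F and both LSK pairs were higher, as for 13% of all genes. The JAK2V617F effect in MEP minus that in LSK was -3.18 for Itgb3, -2.06 for Gp1bb, -0.97 for Gp9 and -2.06 for Treml1 on the log2 scale. The test of this difference did not pass its threshold for any of them (adjusted p = 0.186, 0.215, 0.432 and 0.231).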

How the results depend on the processing

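The members' 9 tested genes gave 1208 values under alternatives, of which 1035 kept direction and side of the threshold, 53 became called, 25 lost a call, 95 changed sign without being called, and 0 reversed a call; the cause was not tested. Many of these repeat the fold of the main fit by construction. Leaving out an LSK array cannot change a fold in MEP, nor a MEP array one in LSK. The filters on dim probes and the variance prior also keep the fold, so the 1035 are not separate checks of direction. Genes called over all genes were 41 for JAK2V617F over all pairs, 21 in MEP, 23 in LSK, 0 for MEP minus LSK, 5408 for MEP over LSK, 93 for Ezh2 deletion and 0 for the interaction. In that order, and only where the count moved by over 1.5 times, normexp gave 92 over all pairs, 51 in MEP, 220 in LSK and 13 for the interaction, quantile normalization gave 27 over all pairs, 6 in LSK and 32 for Ezh2, and the percentile over detected probes gave 11 in MEP and 15 in LSK. With no filter on dim probes the counts were 16 over all pairs, 0 in MEP, 0 in LSK, 9758 for MEP over LSK and 46 for Ezh2. With genes above background on all 8 arrays they were 117, 100, 230, 32 for MEP minus LSK and 7 for the interaction. A common floor gave 0, 0, 0 and 7 for Ezh2, and a trend in the variance prior gave 120, 109, 146, 181 for Ezh2 and 5 for the interaction. Fitting each cell type alone, chosen after seeing the data, gave 335 in MEP and 0 in LSK. For the effect in MEP, leaving out any LSK array gives this same fit of the MEP arrays, with 1 residual degree of freedom. Its calls are thus repeated among the 53 values that became called, and are no separate alternatives. With any MEP array left out, the effect in MEP is that of a single pair, and its spread comes from the LSK arrays alone. Such fits cannot decide whether a call in MEP depends on 1 MEP array. Leaving out 1 array gave 0 to 42 over all pairs, 0 to 335 in MEP, 0 to 288 in LSK, 0 to 149 for MEP minus LSK, 3649 to 5862 for MEP over LSK, 12 to 102 for Ezh2 and 0 to 12 for the interaction. The 335 in MEP arose when any LSK array was left out, and the 0 in MEP when any MEP array was. With any MEP array left out no receptor gene was called in MEP, while leaving out any LSK array called Itga2b, Itgb3, Clec1b, Treml1 and Selp there, and Itgb3 and Clec1b for MEP minus LSK. With genes above background on all 8 arrays, Itgb3, Gp1bb, Treml1 and Selp were called for MEP minus LSK (adjusted p = 0.0152, 0.0306, 0.0403 and 0.0317) and Gp1bb in LSK (0.0372). No paired analysis was possible because every group has replicate 1 alone, so replicate numbers give no block; the matched pairs of the tests are arrays that differ in JAK2 or Ezh2 status. Dim genes such as Clec1b in LSK and Gp6 are limited by signal over background.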
